A study of Mus musculus with 2 samples.

Results

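The cells described here were basophils of the fetal mouse lung, 245 of 8598 single cells that could be assigned to a litter. They were chosen on unique molecular identifiers (UMIs, counts of captured RNA molecules) of 4 genes: at least 5 of Mcpt8 and at least 3 of Hdc, with at most 2 of Cma1 and at most 2 of Gzmb. Mast cells, chosen by at least 3 Cma1 and 5 Hdc UMIs with at most 2 of Gzmb, numbered 2516 and served for comparison. The cells came from C57BL/6J wild-type fetuses harvested on gestation day 18, whose 9-week-old mothers had drunk dexamethasone (DEX, a synthetic glucocorticoid) at 1.3 µg/ml, or phosphate-buffered saline (PBS) in the water, from day 12. The pooled lungs of a litter came from 8 (DEX-1) or 9 fetuses (DEX-2) of treated mothers and from 5 (PBS-1) or 8 fetuses (PBS-2) of controls. A hashtag antibody marked the cells of each pool, and all were sorted as living CD45+, lineage-negative, ST2+ cells, a gate intended for group 2 innate lymphoid cells (ILC2s). The lineage cocktail included antibodies to CD3e, CD4, CD8A, CD11b, CD11c and TER119, and none to the IgE receptor. The litter was the replicate, with 2 per treatment, and each litter was a pool of fetuses from 1 mother.

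Basophils are rare granulocytes that share with mast cells the high-affinity IgE receptor, histamine and type 2 cytokines, but leave the bone marrow or fetal liver as circulating cells, depend on interleukin-3 and carry their own granule proteases. Mast cells mature in tissues under the growth factor receptor Kit and store chymases, tryptases and heparin. In the lung, basophils have been described as a source of cytokines and growth factors that act on macrophages.

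The 4 selecting genes separated the gates by construction. Mcpt8, a serine protease of basophil granules, ranged from 5 to 150 UMIs per basophil with a median of 20, against a median of 0 in mast cells. The mast cell chymase Cma1 had a median of 136 UMIs per mast cell and at most 2 per basophil. Hdc, the enzyme that makes histamine, had a median of 26 UMIs in basophils and 63 in mast cells. Just inside the Mcpt8 limit, with 5 or 6 UMIs, lay 19 cells, and 24 further cells with 3 or 4 UMIs met the other limits. The cells just outside held 6283 CPM (UMIs per 1000000 of the summed UMIs) of the chemokine Ccl3 and 12306 of Ccl4, beside 5495 and 11035 just inside, while the basophil protease Prss34 stood at 507.7 CPM outside and 2145 inside. Among the 447 singlets with at least 5 Mcpt8 UMIs, 96 were left out by Gzmb alone, 31 by Cma1 alone, 70 by both, 3 by Hdc alone and 2 by Hdc with another limit.

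**Figure D1:**
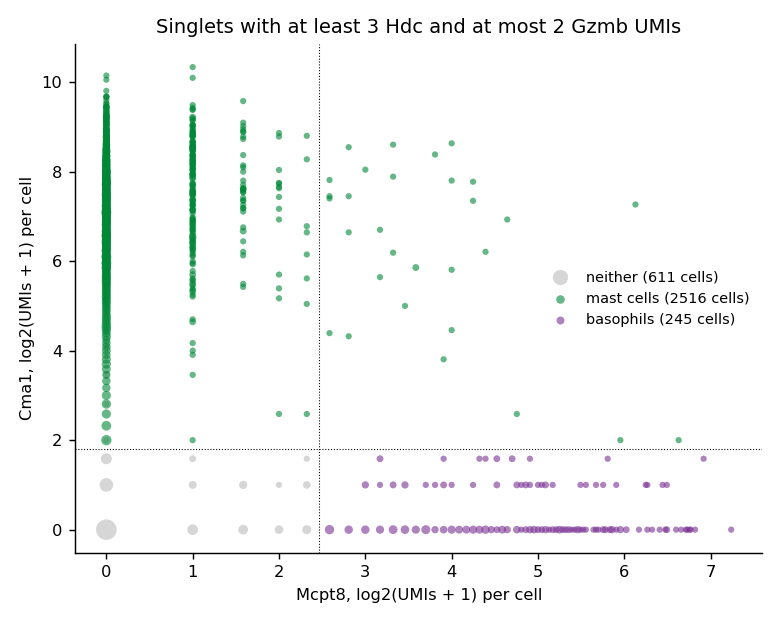
Mcpt8 (horizontal) against Cma1 (vertical), both as log2(UMIs + 1) per cell, for singlets with at least 3 Hdc and at most 2 Gzmb UMIs. Point area grows with the number of cells at that pair of values and the dotted lines mark the limits. The 245 basophils (purple) lie along the bottom, the 2516 mast cells (green) above the Cma1 limit, and 611 cells (grey) in neither gate.

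The neighbouring protease genes Mcpt4 and Mcpt8 lie 19.9 kb apart on chromosome 14 and were read at opposite levels in the 2 gates. Mcpt8 was a selecting gene, so this contrast followed in part from the choice of cells. Prss34 on chromosome 17 leads the tryptase cluster. The bases before the starts of these genes are shown, 250 per gene, 5′ to 3′ in the direction of transcription. They came from the RefSeq promoter table of build GRCm38.p6. Capitals mark GATAA or its reverse complement TTATC, the core that GATA factors recognise; both strands were searched.
Mcpt4: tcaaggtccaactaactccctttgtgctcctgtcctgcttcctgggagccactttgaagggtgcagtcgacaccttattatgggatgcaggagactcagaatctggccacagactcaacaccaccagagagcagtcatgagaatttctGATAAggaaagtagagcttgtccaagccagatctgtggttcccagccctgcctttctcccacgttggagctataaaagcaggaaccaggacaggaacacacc
Mcpt8: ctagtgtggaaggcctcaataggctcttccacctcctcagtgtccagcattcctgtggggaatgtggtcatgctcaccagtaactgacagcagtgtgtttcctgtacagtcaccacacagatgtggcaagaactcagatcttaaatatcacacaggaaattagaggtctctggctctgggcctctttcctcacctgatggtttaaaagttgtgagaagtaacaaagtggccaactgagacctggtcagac
Prss34: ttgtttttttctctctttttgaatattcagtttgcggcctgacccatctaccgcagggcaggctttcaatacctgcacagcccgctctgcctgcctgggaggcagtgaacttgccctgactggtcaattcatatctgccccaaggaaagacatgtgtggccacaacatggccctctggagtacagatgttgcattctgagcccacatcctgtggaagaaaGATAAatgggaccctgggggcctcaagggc
The Mcpt4 sequence is chr14:56062311-56062560 on the minus strand, that of Mcpt8 is chr14:56085198-56085447 on the minus strand, and that of Prss34 is chr17:25298144-25298393 on the plus strand. The annotation used for the distances places the starts of Mcpt8 and Mcpt4 at 56085273 and 56062313. By those positions the sequences of Mcpt8 and Mcpt4 reach into the genes. The motif occurred once before Mcpt4, 0 times before Mcpt8 and once before Prss34, at 30 bases before its start. The motif was held by 22.6% of all 32851 promoters listed, so these matches are a description of the letters only.

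Basophils were found in every litter, but unevenly. They were 34 of 1732 singlets in DEX-1 (1.96%, exact 95% binomial interval 1.36 to 2.73%), 100 of 2305 in DEX-2 (4.34%, 3.54 to 5.25%), 79 of 1919 in PBS-1 (4.12%, 3.27 to 5.1%) and 32 of 2642 in PBS-2 (1.21%, 0.83 to 1.71%). DEX-2 and PBS-1 were high, DEX-1 and PBS-2 low, so the treatments overlapped. The DEX mean exceeded the PBS mean by 0.487 percentage points (3.15% ± 1.68 against 2.66% ± 2.05, SD, n = 2 litters each; exact permutation test over litters, two-sided, p = 0.667, where 0.333 is the smallest p that 2 against 2 litters allow). Without DEX-2 the difference was -0.701 points and without PBS-2 it was -0.966, so the direction rested on single litters. Mast cells made up 34.2, 29.2, 29.4 and 26.0% of singlets in DEX-1, DEX-2, PBS-1 and PBS-2, a difference of 3.94 points between treatments (exact permutation test, p = 0.667). Intervals cover counting error only.

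**Figure D2:**
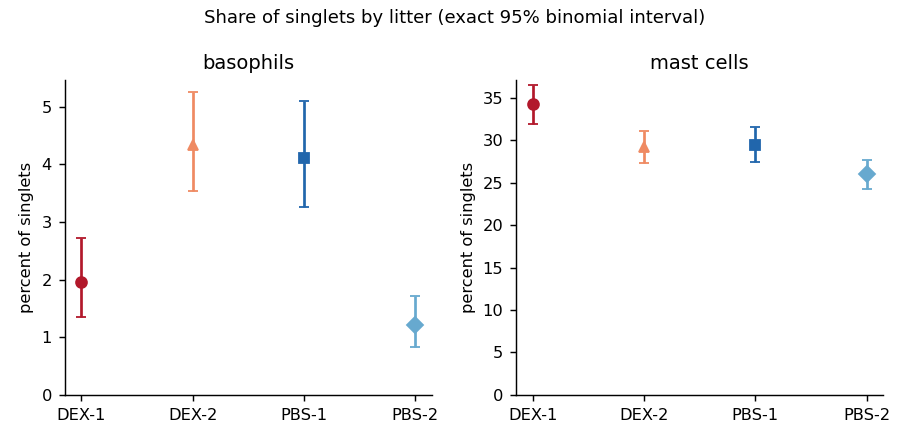
Percent of singlets that were basophils (left) or mast cells (right) in each litter, with exact 95% binomial intervals as bars. Basophil shares are highest in DEX-2 and PBS-1 (4.34 and 4.12%) and lowest in DEX-1 and PBS-2 (1.96 and 1.21%).

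The basophil sums held 335837, 908600, 705412 and 387552 UMIs in DEX-1, DEX-2, PBS-1 and PBS-2, and the median basophil had 7814 UMIs against 6787 in mast cells. The lineage genes of the sort read as follows. Il1rl1, which encodes ST2, was present at 113.2, 129.9, 126.2 and 116.1 CPM in the basophils of the 4 litters, lower than in mast cells in each (log2 difference -1.97 ± 0.13, SE). Itgam, which encodes CD11b, was read at 14.9 to 38.3 CPM, and Cd3e and Cd8a had 0 UMIs.

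Many markers of other cells had 0 UMIs in the basophil gate, and others were read there. All 4 dendritic cell markers were at 0, as were the neutrophil genes Csf3r, Ly6g and Retnlg, the eosinophil genes Prg2 and Epx, the macrophage genes C1qb and C1qc, and the NK genes Ncr1, Klrb1c and Eomes. The T cell markers summed to 11.9 to 51.6 CPM over the litters with 3 of 4 detected, the B cell markers to 17.6 to 116.2 with 4 of 4, the neutrophil markers to 2.98 to 49 with 2 of 5, the macrophage or monocyte markers to 68.2 to 110.2 with 4 of 6, and the eosinophil markers to 83.6 to 193.5 with 2 of 4. Of the NK list only Nkg7 was read, at 256.6 to 393.0 CPM. The ILC2 list summed to 541.9 to 708.8 CPM with 6 of 6 detected, of which its defining factor Gata3 gave 1.42 to 12.9. Against mast cells, Rora, Thy1 and Areg of that list were called higher in basophils, and Gata3 and Il7r were not called. Of the other lists, Nkg7, Siglecf, Adgre1, Csf1r, Trac, Cd79b, Cdh1 and Pecam1 were called higher, and Sftpc, Col1a1 and Hbb-bs lower. The platelet, erythroid and mesenchymal lists reached at most 91.3, 8.51 and 22.0 CPM, and the epithelial list 244.2 to 4621. The alveolar epithelial gene Sftpc was read in 80 of 100 DEX-2 basophils, and 3 barcodes stood apart: 1922 and 1900 Sftpc UMIs in DEX-2 cells and 2859 in a PBS-1 cell, against at most 25 in any other basophil. Doublets of cells from 1 litter share a hashtag and were not removed.

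All 6 marker genes given for these cells were higher in basophils than in mast cells in every litter. Beyond Mcpt8, which was selected on, these are the chemokines Ccl3, Ccl4 and Ccl9, the itaconate-making enzyme Acod1 and the complement receptor C5ar1. Over all genes, 3663 of 10237 passed the test between basophils and mast cells (35.8%; edgeR quasi-likelihood test on UMI sums per litter with the litter as a block, Benjamini-Hochberg adjusted p under 0.05), 1774 higher (17.3%) and 1889 lower (18.5%). With library totals alone in place of the trimmed-mean scaling, 1352 were higher and 2686 lower, and the median log2 difference of all genes moved from -0.09 to -0.29 (-0.285). The gates chose cells on 4 genes, so genes that travel with those were bound to differ, and the log2 values below are to be read against that median. A gene read in 1 gate alone passed the filter on low counts through that gate, so counts and medians over the tested members of a list describe them and support nothing further. Of the 18 listed basophil identity genes, 17 were tested, 16 were higher and 1, Cd63, was lower; the 16 tested mast cell identity genes gave 15 lower and 1 higher, Ctsg.

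Granule proteases differed between the gates in both directions. Prss34, a tryptase-like protease of basophils, stood at 4398, 6107, 6520 and 4098 CPM in the basophils of DEX-1, DEX-2, PBS-1 and PBS-2, and at 477.1, 367.9, 536.1 and 570.6 CPM in mast cells (log2 difference 3.61 ± 0.19, adjusted p = 1.92e-08, edgeR). The lowest basophil litter was above the highest mast cell litter, as the litters of the 2 gates did not overlap for 42% of all genes tested. Tpsb2, the main mast cell tryptase, ran the other way, with 5.5 to 12.9 CPM in basophils and 11436 to 13321 in mast cells, a 1427-fold difference of the pooled levels. Tpsg1, a membrane-anchored tryptase, had 0 UMIs in basophils and was at least 212.7-fold higher in mast cells when 3 counts over the group are taken as the floor. Cpa3, the carboxypeptidase that both lineages store, was 7.25-fold lower in basophils, at 1015 to 1432 CPM. Of the 18 members of the granule list that were tested, 3 were higher in basophils (Prss34, Ctsg and Gzmc) and 11 lower, including the proteoglycan-sulfating enzymes Ndst2, Hs3st1 and Chst11. Over all genes tested, 17.3% were higher and 18.5% lower. Srgn, the core protein that holds granule proteases, was not called, with 5192 to 5985 CPM in basophils and 6260 to 6787 in mast cells.

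In the granule protease cluster (build GRCm38, chromosome 14, 55941451 to 56262260, 15 genes), Cma1, Cma2, Mcpt1, Mcpt9, Mcpt2 and Mcpt4 come first and had 0 to 61 UMIs in all basophils together, against 26 to 426200 in mast cells. Mcpt8 and Ctsg follow, then Gzme, Gzmd, Gzmg, Gzmn and Gzmf with 0 UMIs in basophils, then Gzmc, at 80.1 CPM against 1.04 in mast cells, and Gzmb, which both gates limited. Ctsg, cathepsin G, had 893.3, 387.4, 399.8 and 1122 CPM by litter in basophils and 44.3 to 94.5 in mast cells. In the tryptase cluster (chromosome 17, 25298394 to 25374442), Prss34 lies 43.1 kb before Tpsab1, Tpsb2 and Tpsg1. In the chemokine cluster (chromosome 11, 83525778 to 83752642), Ccl9, Ccl6, Ccl3 and Ccl4 were all higher in basophils, and their neighbour Ccl5 had 0 UMIs. Members of these families are near-identical in places, so reads shared between copies could have been split or dropped, and single low counts are uncertain.

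**Figure D3:**
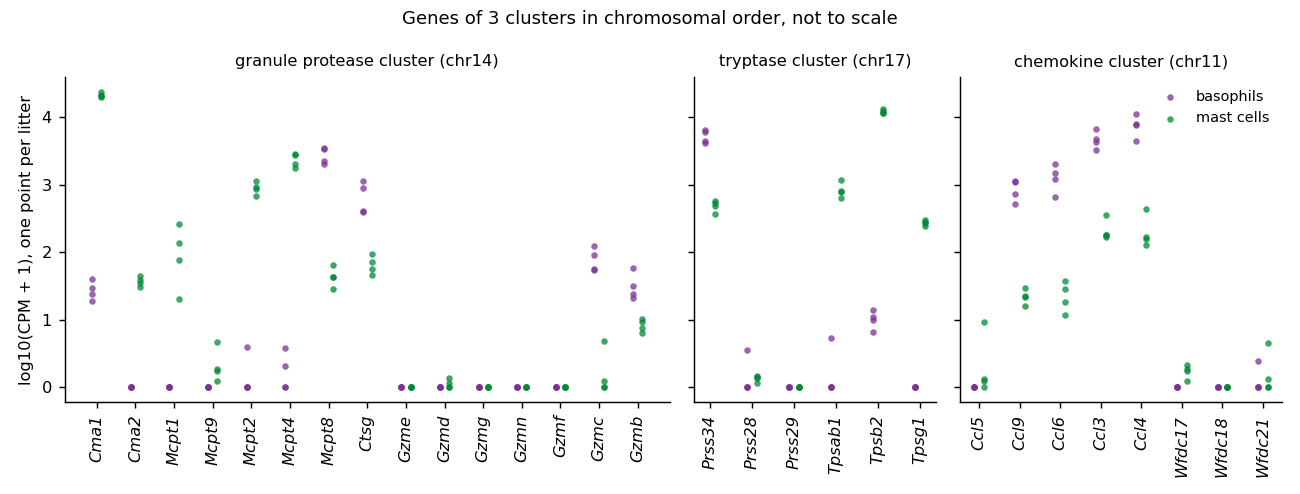
Genes of the granule protease, tryptase and chemokine clusters in chromosomal order (horizontal, not to scale) with log10(CPM + 1) in basophils (purple) and mast cells (green), 1 point per litter. In basophils Mcpt2 and Mcpt4 are at means of 0.744 and 0.984 CPM and the gated Cma1 at 27.1, and Mcpt8, Prss34 and Ccl9 to Ccl4 stand above the mast cell points.

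Several genes of amine handling were read at lower levels in basophils. Of 11 listed, Hdc was selected on and Hnmt, Hrh1 and Hrh2 were too low to test. Slc18a2, Tph1, Ddc, Maob, Slc6a4 and Slc29a1 were called lower, and the histamine receptor Hrh4 was not called, with 0 to 18.1 CPM in basophils and 15.1 to 27.6 in mast cells. Over all genes tested, 17.3% were called higher and 18.5% lower. Tph1, Ddc and Maob were too low to test within basophils and passed the filter through the mast cells, so their direction was fixed by the filter. Tph1, which starts serotonin synthesis, had 2 UMIs in all basophils and 1079 to 1502 CPM in mast cells, a 1484-fold difference of the pooled levels with an exact 95% counting interval of 410.9 to 12257. Slc18a2, the carrier that loads amines into granules, was lower by less, at 72.3 to 157.8 CPM in basophils and 221.0 to 259.5 in mast cells.

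Most chemokine ligands that were tested were higher in basophils. Of 18 ligands listed, 8 were tested and 6 were higher in basophils: Ccl3, Ccl4, Ccl6, Ccl9, Cxcl2 and Cxcl3. The median log2 difference of the 8 was 4.38, beside -0.09 over all genes, of which 17.3% were called higher. Ccl4, a chemokine that attracts monocytes and lymphocytes, stood at 7837, 7768, 11022 and 4412 CPM in basophils of DEX-1, DEX-2, PBS-1 and PBS-2, and at 127.6 to 438.1 in mast cells (log2 difference 5.42 ± 0.17). Ccl3, a ligand of CCR1, stood at 4249, 4750, 6586 and 3236 CPM in the same order and at 168.2 to 350.4 in mast cells. For both, PBS-1 was highest and PBS-2 lowest, so the 2 litters of one treatment spanned the range. Ccl1, a ligand of CCR8, went the other way, with 0 UMIs in basophils and 57.0 to 84.9 CPM in mast cells.

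Receptors for attractants followed. Of 12 tested, 8 were higher in basophils (Ccr1, Ccr2, Cxcr2, Cxcr4, C5ar1, C3ar1, S1pr1 and S1pr4) and 2 lower (Ccr8 and Cx3cr1), with a median of 2.74. The shares over all genes were 17.3% higher and 18.5% lower. Cxcr2, a receptor of neutrophil-attracting chemokines, stood at 56.6, 47.3, 89.3 and 36.1 CPM in basophils and at most 0.965 in mast cells. C5ar1 had 62.5, 261.9, 249.5 and 80.0 CPM by litter in basophils, high in DEX-2 and PBS-1, and 3.67 to 10.5 in mast cells. Ltb4r1, the receptor of leukotriene B4, was 14.1-fold higher in basophils.

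Cytokines and growth factors gave 8 higher, 1 lower and 5 not called among 14 tested, beside 17.3% higher and 18.5% lower over all genes. Their median log2 difference was 1.79. Il6 stood at 756.3, 664.8, 798.1 and 593.5 CPM in basophils and at 18.9 to 30.7 in mast cells (log2 difference 5.04 ± 0.14, adjusted p = 1.52e-10, edgeR). Csf1, which sustains macrophages, had 1426, 1145, 1090 and 668.3 CPM against 55.2 to 81.8, and Hgf, a growth factor of epithelium, 312.7, 270.7, 275.0 and 232.2 CPM against 5.60 to 11.5. Neither overlapped between the gates, as was so for 42% of all genes tested. Osm, Il1b and Areg were also higher, 9.46-, 11.4- and 7.51-fold in the pooled levels. Il4, the cytokine of type 2 responses, did not pass, with 262.0, 278.5, 350.1 and 320.0 CPM in basophils and 363.3 to 423.3 in mast cells (log2 difference -0.17 ± 0.12, adjusted p = 0.295, edgeR). Under 3 alternatives Il4 was called lower in basophils: with library totals alone (log2 difference -0.36, adjusted p = 0.0211, edgeR), with at least 10 counts in every sum (-0.39, adjusted p = 0.0159, edgeR) and after thinning (-0.43, adjusted p = 0.0282, edgeR). Il13 was called higher, at 89.1 to 172.9 CPM against 56.2 to 100.6, with overlap between the gates. Tnf, at 137.6 to 183.2 CPM in basophils, was not called.

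Shares of cells with a UMI were compared after thinning each cell to 2000 UMIs, which kept all 245 basophils, 2301 of 2516 mast cells and 191 of 206 B-gated cells (Cd79a at least 3 UMIs; median depth 3543 UMIs before thinning). Il6 was seen in 162 of 245 basophils (66.1%; 93.9% unthinned), 3.82% of mast cells and 0 of 191 B-gated cells, which allows a share of up to 1.57%. Il4 was seen in 46.9% of basophils, 51.7% of mast cells and 0.524% of B-gated cells, and Il13 in 18.4%, 7.69% and 0%. Hgf gave 44.9% and 1.09% in basophils and mast cells, and Csf1 76.7% and 8.56%, against 1.57% of B-gated cells. Areg was seen in 20.0% of basophils, 2.52% of mast cells and 2.62% of B-gated cells.

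Both gates read the genes of the IgE receptor, and 2 of its 3 chains were higher in basophils. Ms4a2, the β chain of the receptor, stood at 407.9, 351.1, 418.2 and 441.2 CPM in basophils and 73.9 to 106.7 in mast cells, and Fcer1a, the α chain, at 98.1 to 131.8 against 57.1 to 106.9. Fcer1g, the signalling γ chain, was not called (log2 difference -0.16 ± 0.11). Of 28 listed genes of receptor signalling, 27 were tested, 10 were higher and 7 lower, beside 17.3% and 18.5% over all genes. The higher ones included the receptors Cd200r3, Fcgr3, Cd300a, Fcgr2b and Lilrb4a. The lower ones included the kinase Lyn, the adaptors Lcp2 and Gab2 and the phosphatase Inpp5d, which limits IgE signals. Inpp5d stood at 51.0 to 59.6 CPM in basophils and 225.4 to 257.8 in mast cells.

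Cytokine receptors differed in both directions. Il3ra, the interleukin-3 receptor α chain, had 387.1, 339.0, 370.0 and 221.9 CPM in basophils and 115.1 to 130.5 in mast cells. Kit, the mast cell growth factor receptor, had 44.7, 45.1, 11.3 and 92.9 CPM in basophils and 1020 to 1246 in mast cells. Il18rap, a chain of the interleukin-18 receptor, was 5.48-fold higher in basophils. In all, 7 of 22 tested were called higher and 6 lower, beside 17.3% and 18.5% over all genes.

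Among 28 tested lineage transcription factors, 10 were called higher and 8 lower, beside 17.3% and 18.5% over all genes. Cebpa, which favours basophil over mast cell fate, stood at 80.8 to 145.9 CPM against 7.50 to 15.7, and Runx1 at 242.4 to 454.1 against 57.0 to 62.9. Mitf, a factor of mast cell differentiation, stood at 1.42 to 12.9 CPM in basophils and 108.3 to 174.9 in mast cells. Gata2, which both lineages need, was called slightly higher (log2 difference 0.45 ± 0.11, adjusted p = 0.00663, edgeR), a call lost with library totals alone (adjusted p = 0.0629, edgeR), with at least 10 counts in every sum (adjusted p = 0.0877, edgeR) and without DEX-2 (adjusted p = 0.0507, edgeR).

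**Figure D4:**
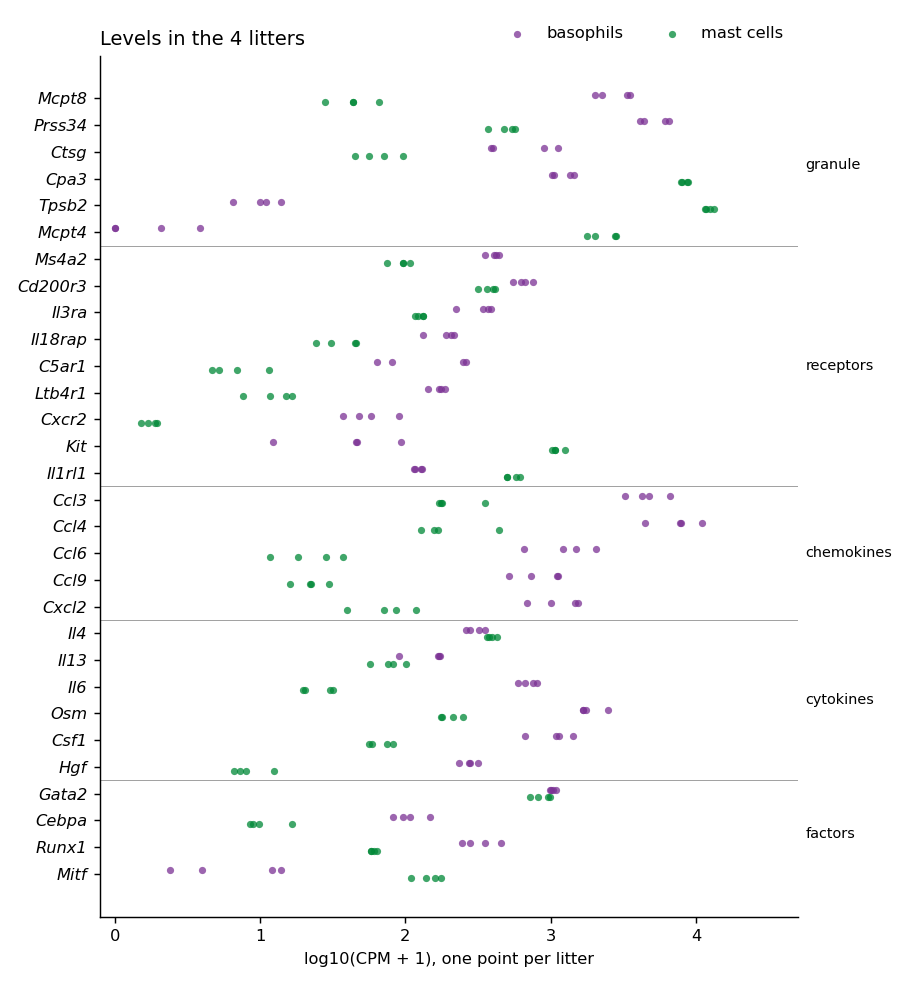
Levels as log10(CPM + 1) in basophils (purple) and mast cells (green), 1 point per litter, for genes grouped by role. The points of the gates lie apart for Prss34, Ccl4, Il6, Csf1, Hgf, Kit and Mitf, and close together for Il4 and Gata2.

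Lipid mediator genes differed in both directions. Alox15 stood at 67.1 to 80.4 CPM in basophils with 10 UMIs in all mast cells, and Alox5ap, the partner of 5-lipoxygenase, at 3891 to 6229 CPM against 2073 to 2351. Hpgds, the haematopoietic prostaglandin D synthase, had 3 UMIs in basophils and 305.8 to 333.8 CPM in mast cells. Of 21 listed genes 13 were tested, 7 were higher and 2 lower, beside 17.3% and 18.5% over all genes. Genes of prostaglandin synthesis and reception lay on both sides, with Ptgs2, Ptges and Ptger3 higher and Ptgs1 and Hpgds lower.

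Cell-cycle genes were more abundant in basophils than in mast cells: 19 of 22 tested were higher and 0 lower, with a median log2 difference of 2.12. Mki67, a marker of dividing cells, stood at 47.6, 92.4, 87.9 and 144.5 CPM in the 4 litters against a pooled 17.5 in mast cells, and after thinning it was seen in 7.76% of basophils, 1.39% of mast cells and 0.524% of B-gated cells. Top2a, a topoisomerase of dividing cells, was seen in 6.94%, 2.0% and 1.05%. Stmn1, called higher in basophils on the sums, was seen in 23.3% of thinned basophils and 25.6% of mast cells, so its share did not follow its level. Integrins and adhesion genes gave 14 higher, among them the basophil integrin chain Itga2, and 3 lower of 20 tested, beside the same 17.3% and 18.5% over all genes.

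The 12 genes with the largest difference in each direction, at 100 CPM or more in the higher gate, included Gm8113, Ccl6, Spp1, Acod1, Ccr2, Adam8, Aqp9, Cd7, Clec4e, Adora2b and Ccl9 on the basophil side, with log2 differences of 5.49 to 6.68. Acod1 had 631.3, 1060, 1233 and 384.5 CPM by litter in basophils and 7.72 to 28.1 in mast cells. Clec4e, the receptor Mincle, had 243.8 to 306.7 CPM, and Adora2b, an adenosine receptor, 268.0 to 397.3. On the mast cell side they were Tpsg1, Chst1, Rgs13, Mcpt1, Mcpt2, Mcpt4, Tph1, Tpsb2, Syngr1, Gcsam, Tpsab1 and Smpx. Each of these 12 had at most 20 UMIs in all basophils together, and Tpsg1, Chst1, Rgs13 and Mcpt1 had 0. Chst1, a sulfotransferase, was at least 130.7-fold higher in mast cells, Rgs13 at least 104.3-fold and Mcpt1 at least 88.8-fold, with 3 counts over the group as the floor.

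Basophils were not uniform, as the myeloid granule gene Mpo shows. Mpo, myeloperoxidase, stood at 1489, 434.7, 387.0 and 1424 CPM in DEX-1, DEX-2, PBS-1 and PBS-2. It was high in DEX-1 and PBS-2, the litters with few basophils, and low in DEX-2 and PBS-1. After thinning, an Mpo UMI was seen in 35.3, 23.0, 21.5 and 43.8% of their basophils, against 0.565% of mast cells and 0 of 191 B-gated cells. Elane, a protease stored beside myeloperoxidase in neutrophil precursors, had at most 5.96 CPM in any litter, and Prtn3 had 53.9 to 193.5.

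Cells were sorted by Mpo as a description, after its values had been seen. The 36 basophils with 10 or more Mpo UMIs had a median of 13289 UMIs, the 134 with none 6723, so depth moved with this division. Ctsg stood at 1685 CPM in the former and 99.4 in the latter, Stmn1, a gene of proliferating cells, at 717.0 and 158.2, and Prss34 at 7630 and 2764. Ccl4 ran the other way, at 3354 and 10886 CPM, as did Ccl6 at 194.0 and 2032, and C5ar1 at 31.4 and 282.7. Il4, Gata2 and Il6 differed less, at 255.0 and 312.6, 933.2 and 1017, and 548.8 and 774.8 CPM. The 75 basophils with 1 to 9 Mpo UMIs held 465.9 CPM of Ctsg and 483.0 of Stmn1, between the other groups. Their Prss34, at 8185.5 CPM, was above both other groups, so Prss34 did not rise steadily with Mpo. Only in PBS-1 was Prss34 highest in the cells with 10 or more Mpo UMIs, at 19873 CPM. In thinned cells, Spearman's rho across the 245 basophils was 0.53 between Mpo and Ctsg (0.46 to 0.62 within litters), 0.38 between Mpo and Stmn1 (0.29 to 0.46) and -0.27 between Mpo and Ccl4 (-0.29 to -0.12). Ccl3 and Ccl4 gave 0.54 (0.44 to 0.69). These points share 1 library, the thinned depth and the selecting gate, and cells of a litter are not replicates.

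Treatment was the question of the design, and few basophil genes passed its test. Between DEX and PBS litters 3 of 5679 genes were called (0.0528%; edgeR quasi-likelihood test on 2 against 2 litter sums, Benjamini-Hochberg adjusted p under 0.05), with 196 at an unadjusted p under 0.05. Mest, an imprinted fetal gene, and Ccn1, a matrix-associated protein, were higher in DEX (0.0352% of genes tested), and Lyz2, the myeloid lysozyme, was lower (0.0176%). Mest had 113.2 and 95.8 CPM in DEX and 8.51 and 5.16 in PBS litters (log2 difference 3.81 ± 0.38, SE), and Ccn1 had 92.3 and 103.5 against 14.2 and 10.3. Lyz2 had 2.98 and 5.5 CPM in DEX and 138.9 and 219.3 in PBS litters (log2 difference -5.11 ± 0.43). None of the 3 overlapped between treatments, but neither did 30.8% of all genes tested.

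Most UMIs behind these 3 calls lay in 1 or 2 cells of a litter. Of the 38 Mest UMIs in DEX-1, 35 lay in 1 cell, and of the 87 in DEX-2, 51 and 20 lay in 2 cells. The DEX-1 cell held 14 UMIs of the endothelial, mesenchymal and epithelial markers Cdh5, Kdr, Col1a1, Col1a2, Pdgfra and Epcam, and the higher DEX-2 cell held 16. Of the Lyz2 UMIs, 96 of 98 in PBS-1 and 77 of 85 in PBS-2 lay in 1 cell each, and the PBS-2 cell held 19 UMIs of neutrophil markers. Over all basophils, 8 of 245 held 3 or more UMIs of the 6 markers, 1, 3, 3 and 1 by litter. The endothelial list summed to 80.4 and 80.3 CPM in DEX and 48.2 and 54.2 in PBS litters. With the highest cell of each gene left out of each sum, an alternative added after the values were seen, 0 genes were called by edgeR, with 115 at an unadjusted p under 0.05. DESeq2 called 3 genes on the complete sums and limma-voom 0.

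The other genes of the 10 with the smallest p were not called: Serpinh1, Sparcl1, Ramp2, Cldn5, Sparc, Lockd and Slc9a3r2, with adjusted p from 0.0667 to 0.841 (edgeR). Except for Lockd, each had its highest DEX-1 count in a barcode of 26774 UMIs that held 14 of these marker UMIs. Lockd, a long noncoding RNA, was spread over 14 of 100 cells in DEX-2 and 18 of 79 in PBS-1, with 8.93 and 17.6 CPM in DEX and 49.6 and 54.2 in PBS litters.

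The listed genes of the glucocorticoid receptor, its chaperones and its targets showed no called difference. Of 26 listed members, 22 were tested, 0 were called and 15 had a value above 0, with a median log2 difference of 0.18 beside 0.01 over all genes. An unadjusted p under 0.05 (edgeR) was read for 3 of the 22, beside 196 of 5679 over all genes. Tsc22d3, which encodes GILZ, stood at 101.2 and 175.0 CPM in DEX and 127.6 and 98.1 in PBS litters (log2 difference 0.35 ± 0.31). Fkbp5, a co-chaperone of the receptor, had 0 and 19.8 against 19.8 and 20.6, where 3 counts in DEX-1 would be 8.93 CPM. Per1, a clock gene, had 62.5 and 46.2 against 46.8 and 31.0. The treatments overlapped for Tsc22d3 and Per1, while for Fkbp5 neither DEX litter was above a PBS litter. Il1r2, the decoy receptor of interleukin-1, had 265.0 and 186.0 CPM in DEX and 112.0 and 108.4 in PBS litters (log2 difference 1.04 ± 0.25, adjusted p = 0.942, edgeR), and the kinase Sgk1 107.2 and 125.5 against 62.4 and 82.6; the litters of these 2 genes did not overlap, as was so for 30.8% of all genes tested. Nr3c1, the receptor itself, had 62.5, 73.7, 72.3 and 74.8 CPM, 4.1-fold lower by its pooled level than in mast cells.

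**Figure D5:**
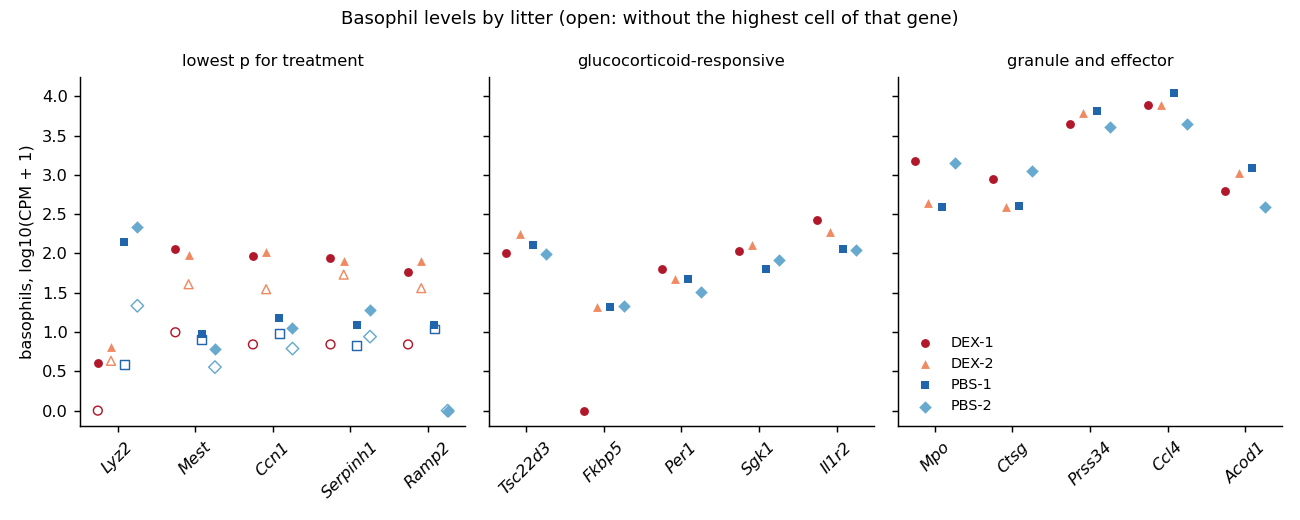
Basophil levels as log10(CPM + 1) by litter (red and orange, DEX; dark and light blue, PBS) for 5 genes with the smallest p for treatment, 5 glucocorticoid-responsive genes and 5 granule or effector genes. Open symbols leave out the cell with the most UMIs of that gene. Without it Mest falls to 8.93 CPM in DEX-1 and Lyz2 to 2.84 in PBS-1, and Mpo is high in DEX-1 and PBS-2.

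No gene of the basophil programme passed the test of treatment. All 18 identity genes were tested and 0 were called, with values from -0.15 to 0.57 on the log2 scale. Likewise 0 of 6 chemokines, 0 of 13 cytokines and growth factors and 0 of 23 genes of IgE receptor signalling were called. Ccl4 in the PBS litters alone ran from 4412 to 11022 CPM, a range that held both DEX values. Of the 22 cell-cycle genes 0 were called, and 4 had an unadjusted p under 0.05 (edgeR), beside 196 of 5679 over all genes. A value below 0 was read for 21, with a median of -0.56 beside 0.01 over all genes. The summed level of the cell-cycle genes was 2111 and 3849 CPM in DEX-1 and DEX-2 and 4183 and 4601 in PBS-1 and PBS-2. Both DEX litters lay below both PBS litters, and DEX-1 was the lowest. Litters of the treatments did not overlap for 30.8% of all single genes tested. In mast cells the summed level was 1010 and 1730 CPM in DEX-1 and DEX-2 and 1335 and 1456 in PBS-1 and PBS-2. The difference between DEX and PBS differed between basophils and mast cells for 14 of 11121 genes (0.126%; edgeR, interaction term), 11 higher (0.0989%) and 3 lower (0.027%), with 543 at an unadjusted p under 0.05. Lyz2, Mest and Serpinh1 were among the 5 with the smallest p. For scale, 3 UMIs were 3.30 to 8.93 CPM in a litter's basophil sum. The test was run on simulated sums of this depth with known changes and a spread that was set. How large a change could be detected at the spread of these litters was not tested.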

How the data were processed

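UMIs of 32285 genes and 4 hashtags were counted by the authors with Cell Ranger 7 against mm10 (both per the submitters' processing notes) from one 10x 5′ library, and the deposited matrix holds these raw counts for 10648 barcodes. No per-sample column was left unassigned. Barcodes with at least 200 genes and at most 5% mitochondrial UMIs numbered 10409. Of these 8598 had a top hashtag of at least 10 UMIs and at least 3 times the next and were taken as singlets; 1811 were left out, 14 of them within the basophil gate. No doublet caller was run, so doublets within a litter remain. Hashtags were matched to litters by number.

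Raw counts were summed per litter and gate, and the sums were tested with edgeR 4.0.16 (R 4.3.3; filtered by expression, trimmed-mean scaling, quasi-likelihood test, Benjamini-Hochberg adjustment, threshold 0.05): DEX against PBS without a block, basophils against mast cells with the litter as block, and the interaction. The study tested cells; here litters were the replicates. Basophil sums held 335837 to 908600 UMIs. DESeq2 1.42.0 and limma-voom (limma 3.58.1), other scalings, filters, gates, hashtag limits, thinning and each litter left out were alternatives. Shares were compared by an exact permutation test over litters (scipy 1.17.1). The tests were tested on simulated data. Litter numbers do not pair animals, and deviations of DEX-1 and PBS-1 correlated at -0.21. Positions and promoters came from GRCm38 annotation, which gave 32158 of the 32285 genes a position.

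Genes named were the 12 with the largest called difference each way between basophils and mast cells, at a mean of at least 100 CPM in the higher gate and in the same direction in all 4 litters; for treatment, the called genes at 10 CPM or more and the 10 with the smallest p; for the interaction, the 5 with the smallest p; and members of listed groups. A gene that this rule names is not reported here. Members and lists were chosen with earlier results of these data known.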

Additional observations from a re-analysis of the deposited data

Results flagged for a closer look

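For 14 genes the difference between DEX and PBS litters itself differed between basophils and mast cells (edgeR interaction term with the litter as block). The 5 with the smallest p are given here. Lyz2 had an adjusted p of 1.98e-06 (edgeR), with 2.98 and 5.5 CPM in DEX and 138.9 and 219.3 in PBS basophils, beside 220.3, 96.2, 108.5 and 105.6 CPM in mast cells of DEX-1, DEX-2, PBS-1 and PBS-2. Mest had an adjusted p of 0.000229 (edgeR), with 113.2 and 95.8 CPM in DEX and 8.51 and 5.16 in PBS basophils. Serpinh1, a collagen chaperone, had an adjusted p of 0.00232 (edgeR), with 86.4 and 80.3 CPM in DEX and 11.3 and 18.1 in PBS basophils. The mast cell sums of DEX-1, DEX-2, PBS-1 and PBS-2 held 4535683, 5882301, 4266163 and 5178710 UMIs. Of these, 248, 489, 257 and 776 were of Mest and 201, 323, 224 and 376 of Serpinh1. In PBS-2 mast cells 126 of the Mest UMIs lay in 1 cell. S100a9, a neutrophil protein, had an adjusted p of 5.83e-06 (edgeR), and 502 of its 586 UMIs in PBS-1 mast cells lay in 1 cell. Cstdc5 had an adjusted p of 0.000229 (edgeR), with 171 of 187 UMIs in PBS-1 mast cells in 1 cell and all 28 basophil UMIs in 1 DEX-2 cell. That single cells hold these counts was measured, and their part in the tests was not tested beyond the alternatives given below.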

How the results depend on the processing

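There were 2 litters per treatment and 32 to 100 basophils per litter, and 3 UMIs were 3.30 to 8.93 CPM in a basophil sum. Leaving out 1 litter moved the basophil share difference between -0.966 and 1.94 points and the mast cell one between 1.43 and 6.46; with basophils plus mast cells as the denominator the mast cell difference was -0.833.

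Genes called between DEX and PBS, 3 as reported, numbered 0 with limma-voom, at least 10 counts in every sum, the stricter hashtag rule, thinning, the highest cell of each gene left out or the replicate block, 1 without cells holding stromal or epithelial markers and 72 with no filter. Leaving out 1 litter gave 26 to 79. Since the numbers deviated in opposite directions, the crossed pairing was added after seeing the data and gave 19. Genes called between basophils and mast cells, 3663, numbered 1859 with at least 10 counts in every sum and 2067 after thinning, and 2617 to 3374 with 1 litter left out. Interaction calls, 14, numbered 37 with library totals alone, 5 with DESeq2, 2 with limma-voom, 76 with no filter, 0 with at least 10 counts in every sum, 36 at 10 or more Mcpt8 UMIs, 2 with the stricter hashtag rule, 6 after thinning, 24 without cells holding markers of other leukocytes, 25 with the highest cell left out, 4 without stromal or epithelial markers, 0 with no replicate block and 52 to 87 with 1 litter left out. The cause of these moves was not tested. The alternatives without single cells were added after seeing the data.

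Of 1141 alternative values for 65 genes named between basophils and mast cells, 1132 kept direction and side of the threshold, 3 lost the call, 3 gained it and 3 changed sign. For treatment, 348 of 418 values over 25 genes kept both, 10 lost and 36 gained the call and 24 changed sign. Over 5 interaction genes 59 of 82 kept both and 23 lost the call. No value that changed sign was called under either setting. Between the gates these were Tnf, at 0.02 with the stricter hashtag rule and from -0.12 to 0.07 with 1 litter left out (log2 differences, as are those that follow). For treatment, the stricter hashtag rule gave -0.90 for Sparc and -0.02 for Prss34. Thinning gave -0.07 for Prss34 and Mpo and -0.02 for Acod1. Leaving out cells with markers of other leukocytes gave -0.00 for Ccl4, -0.08 for Prss34 and -0.01 for Acod1. Prss34 was at -0.01 with library totals alone and -0.00 with at least 10 counts in every sum, and Ccl4 at -0.04 with 10 or more Mcpt8 UMIs. With 1 litter left out at a time the value ran from -0.15 to 0.64 for Tsc22d3, -0.27 to 0.50 for Dusp1, -0.58 to 0.56 for Ccl3, -0.53 to 0.91 for Ccl4, -0.34 to 0.44 for Prss34, -0.20 to 0.34 for Il6, -0.56 to 1.23 for Acod1 and -0.97 to 1.26 for Mpo.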
